A study of Mus musculus with 59 samples.

Results

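The cortex of adult male mice that had been exposed to valproic acid before birth was compared between animals kept with a running wheel and animals kept without one. The comparison rests on 6 of the 59 arrays of the series, chosen by their titles alone: the 3 adult cortex arrays titled VPA+RW and the 3 titled VPA. All animals were C57BL/6 with no engineered allele named. Both groups shared the prenatal exposure: their dams swallowed 300 mg/kg valproic acid daily from E12.5 through E13.5 to E14.5. The offspring were 12 to 13 weeks old, and the labels record no behavioural test. For the runners a wheel was placed in the cage after weaning, so running was voluntary, and the distance run is not stated. A second pair of groups, MC and MC+RW with 3 arrays each, came from dams given 0.5% methylcellulose, the vehicle, on the same days. The labels call the arrays of a group biological replicates but do not say whether the animals came from separate litters, so the p-values measure the spread between these samples.

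Valproic acid is an anticonvulsant and mood stabiliser that also inhibits histone deacetylases, the enzymes that remove acetyl groups from histones, and exposure during pregnancy is a known risk to the developing brain. Voluntary wheel running is widely used in mice as an enrichment that engages neuronal activity, blood vessels, energy metabolism and neurotrophic signalling. Neuronal firing switches on immediate early genes within minutes, and the circadian clock, a loop in which the CLOCK or NPAS2 and BMAL1 proteins drive their own repressors, sets daily rhythms of many cortical transcripts. The labels do not state the hour at which the adult brains were taken.

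RNA was measured on Affymetrix mouse GeneChips, where a gene's signal is a fluorescence intensity, here scaled so that every array had the same trimmed mean. Of 45101 probe sets, 34958 carried 1 gene symbol, and 18194 genes were represented by 1 probe set each, of which 13606 were bright enough in the adult cortex to be tested. The 6 arrays were alike in quality: the 3' to 5' signal ratio of the Actb control was 1.297 to 1.389 and that of Gapdh 0.731 to 0.772, and the lowest correlation with another array of the group was 0.9823 to 0.9845. The labelled tissue was checked against markers: 19 of 20 upper-layer and 21 of 23 deep-layer cortical neuron genes were bright enough to be tested. Their summed signals overlapped between the groups, at 44975 to 46214 in the VPA arrays and 45451 to 46712 in the VPA+RW arrays for the upper layers and 30927 to 33612 in the VPA arrays and 33378 to 35179 in the VPA+RW arrays for the deep layers. In such bulk tissue, fewer cells of a type and less RNA per cell cannot be told apart.

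A pair of arrays stood apart in part of their genes. In VPA replicate 1, Ttr, the thyroid hormone carrier made by the choroid plexus, had a signal of 9946, against 128 to 567 on the other 5 arrays. Summed over the 9 choroid plexus genes tested, the signal was 2643 to 12785 in the VPA arrays and 2699 to 2951 in the VPA+RW arrays. In VPA+RW replicate 3, activity-regulated genes were low: 30 of 38 immediate early genes had their lowest signal of the 6 arrays there, against 0 to 4 on each other array, while over all 13606 genes it was lowest for 16.3%. Among genes whose other 5 arrays were all at 200 or above, 28 lay at least 1.5-fold below the next lowest array in this library, 16 of them immediate early genes, against 3 to 11 in the other 5 libraries. On the hippocampus array with the same number, 25 of 38 immediate early genes were lowest of 6, while over all genes it was lowest for 19.7%. There 17 genes lay at least 1.5-fold below the other 5 arrays, 8 of them immediate early genes. In hippocampus VPA replicate 2 more genes did, 24, of which 0 were immediate early genes. The part of the choroid plexus signal in the results was not tested.

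Running left no gene past the threshold. Of 13606 genes tested with limma, 0 had an adjusted p under 0.05 (0%), and the smallest adjusted p was 0.0681, that of Pim3. At an unadjusted p under 0.05, 859 genes differed (6.31%), 409 higher (3.01%) and 450 lower (3.31%) in the runners, and by sign alone 48.7% stood higher and 51.3% lower. The groups did not overlap for 13.3% of the genes, 6.5% higher and 6.79% lower. The median log2 difference was -0.0041 and the 10th and 90th percentiles were -0.22 and 0.17. The median 95% interval reached 0.24 to each side with 3 arrays a group. That width holds for 1 gene before adjustment. Larger differences also failed to pass after adjustment, such as 0.61 for Nptx2. Without VPA+RW replicate 3, 3 of 13558 genes passed (0.0221%), and all fell: Dbp, Ciart and Ggt7. That array was singled out by its values and was the highest runner for all 3 genes, so these calls are no separate support. Every gene difference below is a log2 difference of scaled signal, VPA+RW minus VPA, with its standard error, and none passed unless this is said.

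**Figure D1:**
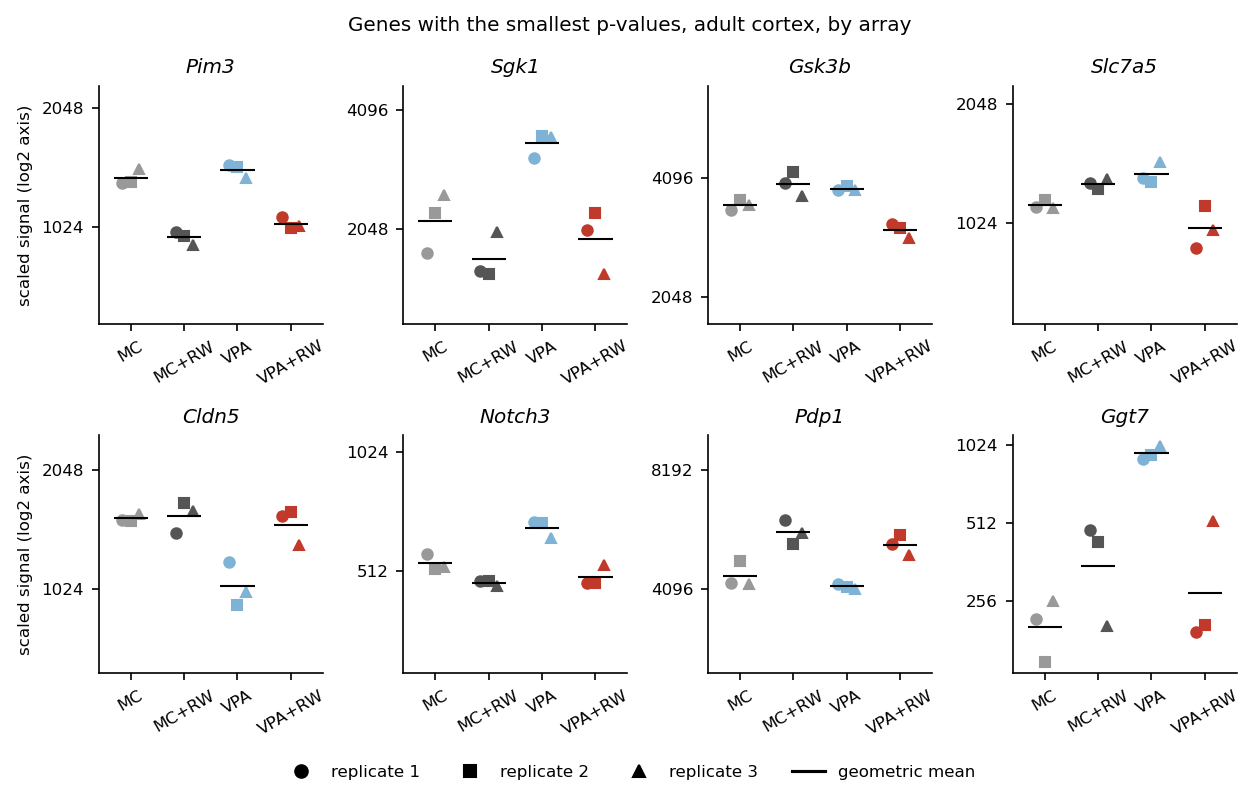
Scaled signal on a log2 axis for 8 of the genes with the smallest p-values in adult cortex, by group (MC, MC+RW, VPA, VPA+RW), with 1 point per array, shaped by replicate number, and a bar at the geometric mean of 3 arrays. For each gene the VPA and VPA+RW arrays do not overlap, which the rule that named these genes required. Ggt7 ranges from 194 to 1014 over these 6 arrays.

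The genes with the smallest p-values on the lower side included several kinases and an amino acid carrier. The 24 genes with the smallest p-values were picked only among genes whose groups did not overlap. Their lack of overlap, here and with their lists below, was therefore set by that rule and is not a result. Pim3, a serine/threonine kinase that promotes survival, had signals of 1474, 1455 and 1365 in the VPA arrays and 1090.1, 1017 and 1031 in the VPA+RW arrays. All 3 runners lay below all 3 non-runners, with a difference of -0.45 ± 0.062 (SE, n = 3 and 3, limma adjusted p = 0.0681). Gsk3b, the kinase glycogen synthase kinase 3 beta, gave 3819, 3911 and 3836 without a wheel and 3145, 3063 and 2902 with one. Again no array overlapped, the difference being -0.35 ± 0.057 (limma adjusted p = 0.135). The 5 further probe sets of Gsk3b tested also had log2 differences below 0, of sizes that did not agree, from -0.011 on one of similar brightness to -0.54 on one at a mean signal of 1203 in the VPA arrays. Slc7a5, a carrier of large neutral amino acids, stood at 1337, 1302 and 1464 and 889, 1136 and 983, a difference of -0.45 ± 0.082 with the groups apart. Coq10b, a coenzyme Q binding protein of mitochondria, differed by -0.43 and the kinase Cdk18 by -0.62. Acaa1a, a peroxisomal thiolase, differed by -0.46, Igfbp7, an insulin-like growth factor binding protein, by -0.50 and the kinase Stk17b by -0.40. Mean signals of Coq10b were 1272 in MC, 1602 in VPA and 1190 in VPA+RW arrays, and those of Acaa1a 921, 1188 and 863. Ggt7, of the gamma-glutamyltransferase family, gave 906, 936 and 1014 without a wheel and 194, 207 and 522 with one, and replicate 3 was the runner nearest the non-runners. Its difference was -1.78 ± 0.36 (limma adjusted p = 0.255), and without replicate 3 it fell by 2.24 on the log2 scale (limma adjusted p = 0.0292). The signal of Ggt7 was 149 to 256 in the MC cortex arrays.

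On the higher side, Pdp1, the phosphatase that activates pyruvate dehydrogenase, had signals of 4223, 4153 and 4110.3 in the VPA arrays and 5323, 5618 and 4993 in the VPA+RW arrays. Every runner was above every non-runner, by 0.35 ± 0.068 (limma adjusted p = 0.2). Cacng2, the AMPA receptor partner stargazin, gave 878, 733 and 799 and 1151, 1095 and 1263. Its groups were also apart, at 0.54 ± 0.13. The rule also named Nptx2, Cldn5 and Npas2 on this side, described below with their lists, and Lrrk2, a kinase mutated in Parkinson's disease (0.33), Ccar1, a regulator of cell cycle and apoptosis (0.28), Sgsm1, a regulator of small G proteins (0.40), Nsun2, an RNA cytosine methyltransferase (0.33), Rilpl1 (0.28), Dtl (0.60) and the translation factor Eif1a (0.33). Of the 24 genes with the smallest p-values, 15 had another probe set bright enough to test, and 21 of those 24 further probe sets differed in the same direction. The exceptions were 1 probe set each of Rilpl1, Dtl and Eif1a.

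Circadian clock genes tended to be lower in VPA+RW than in VPA arrays. Of the 3 genes that passed without VPA+RW replicate 3, 2 belong to this list. Ciart, a repressor of the CLOCK-BMAL1 complex, gave 605, 494 and 535 in the VPA arrays and 251, 217 and 404 in the VPA+RW arrays. All runners were lower, with replicate 3 nearest to the non-runners, and the difference was -0.95 ± 0.20 (limma adjusted p = 0.295). Dbp, a transcription factor that carries clock output, gave 2723, 2838 and 2857 and 1317, 1149 and 2825. Replicates 1 and 2 of the runners lay far below the non-runners and replicate 3 lay among them, so the groups overlapped and the difference was -0.79 ± 0.23 (limma adjusted p = 0.569). Without that array Dbp fell by 1.19 on the log2 scale (limma adjusted p = 1.26e-04) and Ciart fell by 1.22 (limma adjusted p = 0.0289). These fits hold 2 runners against 3 non-runners. The array left out was singled out by its values and was the highest runner for both genes, so these p-values are no separate support. A second probe set of Dbp differed by -0.73 over all 6 arrays.

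Other low members included repressors of the loop. Nr1d2, the nuclear receptor REV-ERB beta, gave 4945, 4935 and 5154 and 3862, 3703 and 4628, a difference of -0.31 ± 0.10. Per3, a period protein, gave 547, 549 and 559 and 436, 381 and 527, a difference of -0.31 ± 0.11. In both, replicate 3 was the runner closest to the non-runners, although the groups did not overlap. Per1 (-0.58 ± 0.18) and Bhlhe40, a repressor also known as DEC1 (-0.37 ± 0.12), behaved otherwise: there replicate 3 was the lowest runner, at 1005 for Per1 and 1771 for Bhlhe40. Without it the differences were -0.34 and -0.21. On the activator side, Npas2 gave 836, 798 and 795 and 1019.6, 1001 and 1039, a difference of 0.33 ± 0.079 with no overlap, while its other, dimmer probe set differed by 0.028. Arntl, which encodes BMAL1, differed by 0.36 ± 0.12, while its other probe set differed by -0.23. Over the 19 clock genes the median difference was -0.12, against -0.0041 for all genes, with 13 lower and 6 higher. At an unadjusted p under 0.05, 6 were lower and 2 higher, against 3.31% and 3.01% of all genes, and 0 passed after adjustment. Without VPA+RW replicate 3 the median was -0.077, with 13 of 19 lower, where 52.1% of all genes stood lower. At an unadjusted p under 0.05, 7 were then lower and 4 higher, against 3.79% and 3.34% of all genes. In MC offspring the list's median for running was 0.030. There 3 were lower and 3 higher at that threshold, against 6.84% and 6.65% of all genes. The list's summed signal was 30615 to 31623 in the VPA arrays and 26263 to 27734 in the VPA+RW arrays. It was 27791, 26144 and 28820 in the MC arrays and 27744, 27949 and 24807 in the MC+RW arrays.

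**Figure D2:**
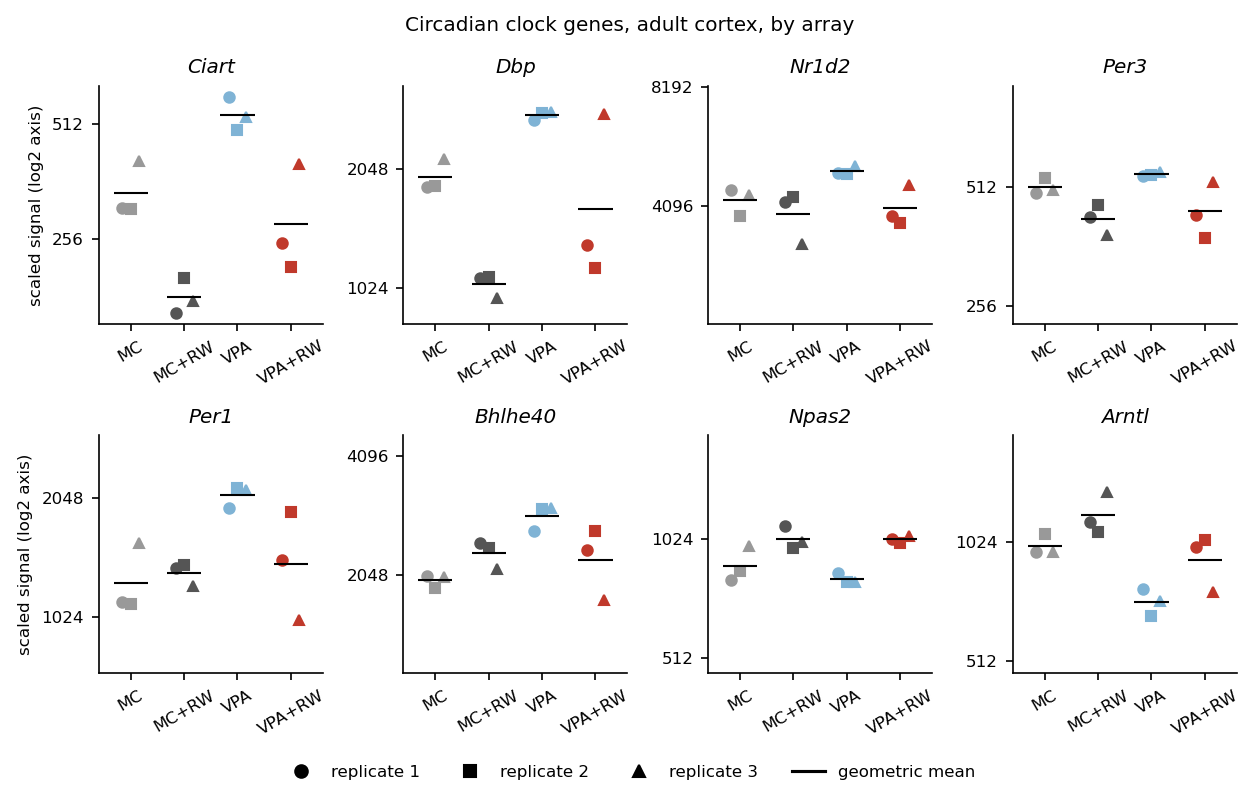
Scaled signal on a log2 axis for 8 circadian clock genes in adult cortex, by group, with 1 point per array, shaped by replicate number, and a bar at the geometric mean of 3 arrays. The VPA+RW replicate 3 triangle lies at 2825 for Dbp, level with the VPA arrays, while the other 2 runners lie at 1317 and 1149.

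The E-box CACGTG is the element through which CLOCK-BMAL1 acts, and stretches that hold it are shown for the clock gene with the smallest p-value on the lower side and for Per1. RefSeq promoters of GRCm38.p6 were matched for 17 of the 19 clock genes. The 6 letters, read on either strand (the element is its own reverse complement), occurred in the 250 bases before the start of 5 of these 17 genes (29.4%), namely Per1, Cry1, Tef, Bhlhe41 and Ciart, and in 6.86% of all 27025 genes with a promoter. The stretches below run 5' to 3' along the gene's strand, with the match in capitals. That of Ciart lies at chr3:95882237-95882302 on the minus strand, with its match starting 44 bases before the start and being the nearest of 3 in the window. That of Per1 lies at chr11:69098753-69098818 on the plus strand, 166 bases before the start.
Ciart: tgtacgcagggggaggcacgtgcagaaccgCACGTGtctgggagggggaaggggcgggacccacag
Per1: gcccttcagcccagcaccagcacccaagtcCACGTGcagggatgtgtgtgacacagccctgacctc
A match describes the letters and says nothing of binding in these samples.

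Most immediate early genes had their lowest signal in VPA+RW replicate 3. Arc, which encodes a synaptic protein of activity-dependent plasticity, gave 4064, 4108 and 3469 in the VPA arrays and 4540.4, 3932 and 436 in the VPA+RW arrays. Fos, a subunit of the AP-1 transcription factor, gave 4220.0, 3394 and 3214 and 3692, 3588 and 628. Egr2, a zinc finger transcription factor, gave 748, 744 and 497 and 651, 661 and 103. In all 3 genes, replicates 1 and 2 of the runners lay within or close to the range of the non-runners and replicate 3 far below. The differences were -0.97 ± 0.62 for Arc, -0.82 ± 0.47 for Fos and -0.88 ± 0.51 for Egr2. Without replicate 3 they were 0.13, 0.022 and 0.010. Junb, another AP-1 subunit, Dusp1, a phosphatase that switches off MAP kinases, and Nr4a1, an orphan nuclear receptor, also had their lowest signal there, at 341, 743 and 1249. Arc, Fos, Egr2, Junb, Dusp1, Nr4a1, Bdnf, Nr1d2, Per3 and Arntl fall outside the naming rule and were chosen after their values were seen.

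Over the 38 immediate early genes the median difference was -0.15, with 26 lower and 12 higher. Without VPA+RW replicate 3 it was 0.10, with 9 lower and 29 higher, where 47.9% of all genes stood higher. The direction of the list's median in VPA offspring thus rested on that library. At an unadjusted p under 0.05, 3 were higher and 3 lower over all 6 arrays, against 3.01% and 3.31% of all genes. Nptx2, a secreted pentraxin that gathers AMPA receptors at synapses, was higher in every runner, replicate 3 included: 1016, 865 and 920.0 in the VPA arrays and 1339.9, 1329 and 1625 in the VPA+RW arrays. Its difference was 0.61 ± 0.10 (limma adjusted p = 0.135) with the groups apart. Inhba, which encodes activin beta A, gave 74.5, 362 and 263 and 549.5, 429 and 477. All runners were higher, by 1.33 ± 0.39, with VPA replicate 1 well below the rest, and without that array the difference was 0.65. Btg2, an antiproliferative gene, differed by -0.55 ± 0.18, and by -0.30 without VPA+RW replicate 3. Bdnf, the neurotrophin most often studied with running, gave 650.4, 651 and 648 and 855, 689 and 638. Its groups overlapped, and the difference was 0.15 ± 0.14 (95% interval -0.15 to 0.46, limma adjusted p = 0.942). Its other, dimmer probe set differed by 0.19 (limma unadjusted p = 0.044). For running in MC offspring, the median over the immediate early genes was -0.17. There 9 were lower and 7 higher at an unadjusted p under 0.05, against 6.84% and 6.65% of all genes. In MC offspring Fos differed by -0.85, Junb by -0.89, Dusp1 by -0.90 and Btg2 by -1.05, with no overlap of MC and MC+RW arrays. Arc differed by -0.64 and Nr4a1 by -0.43, with overlap.

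**Figure D3:**
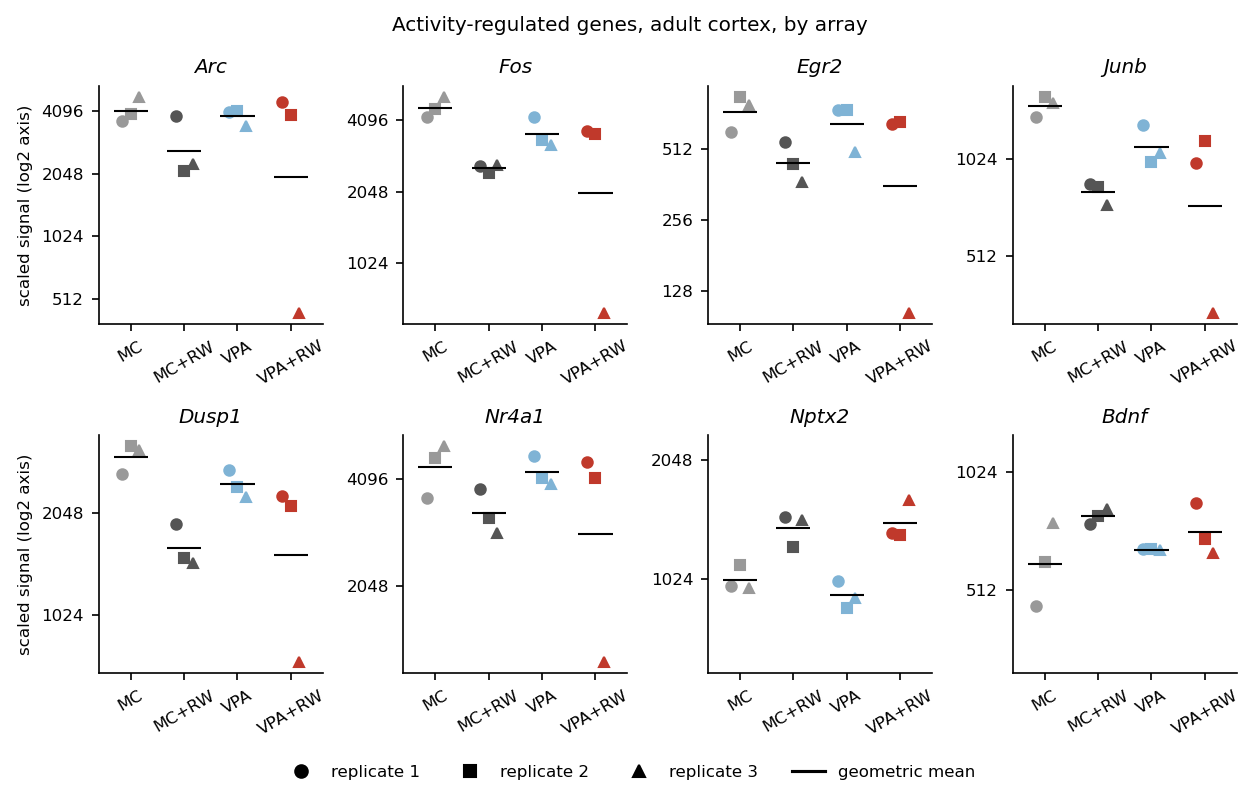
Scaled signal on a log2 axis for 8 activity-regulated genes in adult cortex, by group, with 1 point per array, shaped by replicate number, and a bar at the geometric mean of 3 arrays. VPA+RW replicate 3 lies far below every other array for Arc (436) and Fos (628) but highest of the 6 VPA and VPA+RW arrays for Nptx2 (1625).

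The cyclic AMP response element, through which CREB acts, is shown in its full form for Dusp1 and Btg2 and in its shorter form for Fos, whose window held only the shorter form. Its full form TGACGTCA, read on either strand, was found in the 250 bases before the start of 3 of the 30 immediate early genes with a RefSeq promoter (10%), Btg2, Dusp1 and Plk2, and in 1.77% of all genes. Its shorter form TGACGT, which lies within the full form, was found on either strand in 13 of the 30 (43.3%) and in 7.29% of all genes. The stretches run 5' to 3' along the gene's strand in GRCm38.p6, with the match in capitals. They lie at chr12:85473794-85473859 on the plus strand for Fos, at chr17:26508578-26508645 on the minus strand for Dusp1 and at chr1:134079284-134079351 on the minus strand for Btg2.
Fos: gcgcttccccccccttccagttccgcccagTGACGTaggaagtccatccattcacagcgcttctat
Dusp1: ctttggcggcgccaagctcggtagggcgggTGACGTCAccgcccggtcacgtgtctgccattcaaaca
Btg2: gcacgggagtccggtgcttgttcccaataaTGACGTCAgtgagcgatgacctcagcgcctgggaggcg

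Glucocorticoid-responsive genes stood on both sides of 0. Sgk1, a kinase induced by corticosteroids, gave 3107, 3526 and 3499.6 in the VPA arrays and 2034, 2251 and 1578 in the VPA+RW arrays. Every runner was below every non-runner, the difference being -0.80 ± 0.14 (limma adjusted p = 0.163), and replicate 3 was the lowest. Mean signals of Sgk1 were 2172 in MC and 1730 in MC+RW arrays, against 3377 in VPA and 1954 in VPA+RW arrays. Nfkbia, the inhibitor of NF-kappa-B, differed by -0.39 ± 0.087, and 4 further probe sets of it also stood lower. Nr3c2, the mineralocorticoid receptor, differed by -0.36 ± 0.083. Cdkn1a, the cell cycle inhibitor p21, stood higher, by 0.43 ± 0.14. Over the 23 genes tested the median was -0.027, with 13 lower and 10 higher, and 5 lower and 2 higher at an unadjusted p under 0.05, against 3.31% and 3.01% of all genes. Without VPA+RW replicate 3, 3 were lower and 3 higher, against 3.79% and 3.34%.

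Among vascular genes, those of the vessel wall were mostly lower in VPA+RW than in VPA arrays. Over 16 pericyte and smooth muscle genes the median difference was -0.14, with 14 lower and 2 higher, where 51.3% of all genes stood lower. At an unadjusted p under 0.05, 5 were lower, against 3.31% of all genes. None passed after adjustment. Notch3, the receptor of mural cells, gave 683, 677 and 623 and 479, 478 and 530.3. Its groups were apart, by -0.42 ± 0.078. Mean signals of Notch3 were 537 in MC, 480 in MC+RW, 661 in VPA and 496 in VPA+RW arrays. Rgs5, a regulator of G protein signalling in pericytes, gave 3216, 3158 and 3031 and 2358, 2422 and 3000.3, a difference of -0.28 ± 0.088, and its 3 further probe sets were lower as well. Vitronectin, Vtn, differed by -0.20 ± 0.062 and smooth muscle actin, Acta2, by -0.26 ± 0.088. Without VPA+RW replicate 3 the list's median was -0.20, and without VPA replicate 1 it was -0.15. The list's summed signal was 10284 to 11458 in the VPA arrays and 8942 to 9837 in the VPA+RW arrays. It was 9429, 9355 and 9793 in the MC arrays and 9725, 9747 and 9803 in the MC+RW arrays. The VPA non-runners were thus the group with the highest signals. The list's median was 0.12 for VPA minus MC and -0.044 for running in MC offspring.

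Endothelial genes as a list were evenly split: the median over 22 was 0.0013, with 11 higher and 11 lower. Claudin 5, Cldn5, the tight junction protein of the blood-brain barrier, gave 1199, 932 and 1006 and 1565, 1600.2 and 1321. All runners were higher, by 0.52 ± 0.10 (limma adjusted p = 0.196). Its mean signal was 1545 in MC, 1574 in MC+RW, 1046 in VPA and 1495 in VPA+RW arrays. The VPA non-runners were thus the group that stood apart, with VPA minus MC at -0.57. Sox18, an endothelial transcription factor, stood higher by 0.45 ± 0.14. The adhesion molecule Esam differed by -0.34 ± 0.15, and Slc2a1, the glucose transporter GLUT1, by -0.18 ± 0.090.

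Neuropeptide and chaperone genes were mostly higher by small amounts. Of 27 neurotrophic factor and neuropeptide genes, 21 stood higher, against 48.7% of all genes, with a median of 0.12, and 0.071 without VPA replicate 1. At an unadjusted p under 0.05, 5 were higher and 0 lower, against 3.01% and 3.31% of all genes. Vip, vasoactive intestinal peptide of cortical interneurons, gave 2189, 2363 and 2437 and 2678, 2736 and 2652. Its groups were apart by 0.21 ± 0.055. Prodynorphin, Pdyn, differed by 0.35 ± 0.13, corticotropin-releasing hormone, Crh, by 0.35 ± 0.14, and Ntrk2, the BDNF receptor TrkB, by 0.19 ± 0.070. Of 27 heat shock and chaperone genes, 24 stood higher, with a median of 0.11, where 48.7% of all genes stood higher. In this list 4 genes were higher and 0 lower at an unadjusted p under 0.05, against 3.01% and 3.31% of all genes. Without VPA+RW replicate 3 these counts were 9 and 0, against 3.34% and 3.79%. The members with the smallest p-values were Manf, a factor of the endoplasmic reticulum stress response (0.31 ± 0.095), the HSP90 partners Chordc1 (0.34 ± 0.11) and Ahsa1 (0.13 ± 0.050), and Pdia4, a disulfide isomerase (0.31 ± 0.12).

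Over all 6 arrays, the medians of 6 lists of glia, synapse and metabolism were within 0.05 of 0. The median was 0.015 over 54 respiratory chain genes, 0.029 over 33 synaptic vesicle genes, 0.025 over 38 glutamate receptor and postsynaptic genes, 0.0021 over 26 astrocyte genes, 0.021 over 18 microglia genes and 0.026 over 22 myelin genes. The microglia median was 0.11 without VPA+RW replicate 3, with 13 of 18 genes higher, and 0.10 without VPA replicate 1. Likewise the median of 22 striatal projection neuron genes was 0.020 over all 6 arrays, 0.13 without VPA+RW replicate 3 and 0.10 without VPA replicate 1. Among 13 histone deacetylase genes, the enzymes that valproic acid inhibits, the median was 0.012, and -0.0033 without VPA+RW replicate 3. There Hdac4 (0.17 ± 0.073) and Hdac5 (0.16 ± 0.071) stood higher and Hdac10 (-0.36 ± 0.15) lower at an unadjusted p under 0.05, against 3.01% and 3.31% of all genes, and without that array 3 were higher and 0 lower, against 3.34% and 3.79%. The red cell list had the largest median, 0.33, but only 3 of its 12 genes could be tested.

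**Figure D4:**
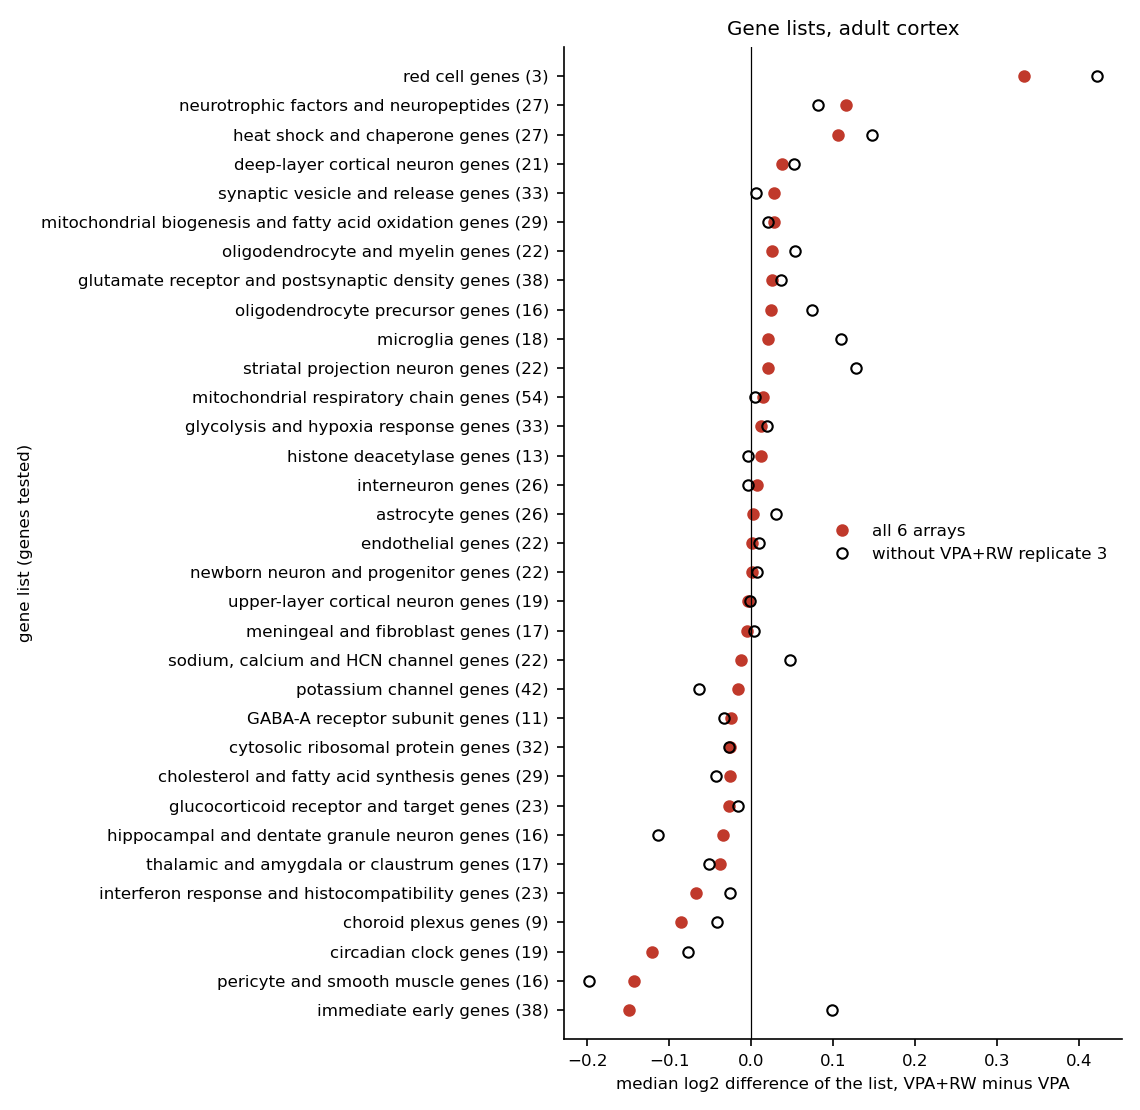
Median log2 difference, VPA+RW minus VPA in adult cortex, of each of 33 gene lists, with the number of genes tested in parentheses; filled points use all 6 arrays and open points leave out VPA+RW replicate 3. The immediate early genes lie at -0.15 with that array and at 0.10 without it.

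Whether running differed between VPA and MC offspring was tested directly, as the difference of the 2 running effects. With limma, 0 of 13606 genes passed (0%), the smallest adjusted p being 0.106, and 848 had an unadjusted p under 0.05 (6.23%). In the MC offspring themselves, 2 genes passed (0.0147%), with 905 genes higher (6.65%) and 930 lower (6.84%) at an unadjusted p under 0.05: Pim3 fell by 0.50 on the log2 scale (SE 0.062, limma adjusted p = 0.0218) and Dclk1 rose by 0.31 (limma adjusted p = 0.0314). The fall of Pim3 there stands beside the difference of -0.45 in VPA offspring, with signals of 1323, 1336 and 1442 in MC and 999, 976 and 923 in MC+RW arrays. Leaving out 1 array moved the MC count between 0 and 133: it was 133 without MC+RW replicate 3 and 19 without VPA+RW replicate 3, which enters only through the shared estimate of spread. These groups share no arrays with the VPA groups. Without running, VPA against MC offspring, a comparison that shares the VPA arrays, had 1 gene past the threshold (0.00735%), the epithelial adhesion gene Epcam (VPA minus MC 1.29 ± 0.16, limma adjusted p = 0.0249), with 1426 at an unadjusted p under 0.05 (10.5%). That count was 0 to 5 leaving out 1 array, 5 without VPA+RW replicate 3. Of the 24 genes named above for the VPA comparison, 19 differed in the same direction in the MC comparison. The share of all genes that did so was not worked out, so this count has no baseline beside it. Ciart differed by -0.91 ± 0.20 in MC offspring and by -0.95 ± 0.20 in VPA offspring, and Dbp by -0.90 ± 0.23 and -0.79 ± 0.23. Per1 and Bhlhe40 stood higher in the MC runners, by 0.086 and 0.23, against -0.58 and -0.37 in VPA offspring. In the MC+RW arrays Dbp was 1089, 1093 and 969, below all 3 MC arrays at 1847, 1858 and 2176.

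Genes were also named by the smallest p-values for the difference of the running effects, and none passed. They were picked only among genes whose VPA and VPA+RW arrays did not overlap. Genes that differed mainly in MC offspring could therefore be missed. Gsk3b differed by -0.35 in VPA and 0.18 in MC offspring, a difference of -0.52 ± 0.080 (limma adjusted p = 0.106). Pcnt, the centrosomal protein pericentrin, differed by -0.30 in VPA and 0.76 in MC offspring, a difference of -1.06 ± 0.16 (limma adjusted p = 0.106). The other, dimmer probe set of Pcnt differed by -0.076 in VPA offspring. Slc7a5 differed by -0.45 and 0.18, and Sap30, a subunit of a histone deacetylase complex, by -0.47 and 0.28. Ggt7 differed by -1.78 and 0.78, a difference of -2.57 ± 0.51 (limma adjusted p = 0.523). Higher in VPA runners and lower in MC runners were Pygo1, a Wnt pathway factor (0.39 and -0.47), Gabrg1, a GABA-A receptor subunit (0.26 and -0.30), Stxbp4 (0.19 and -0.36), Tlnrd1 (0.36 and -0.20) and Gpat4, an enzyme of glycerolipid synthesis (0.24 and -0.27).

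**Figure D5:**
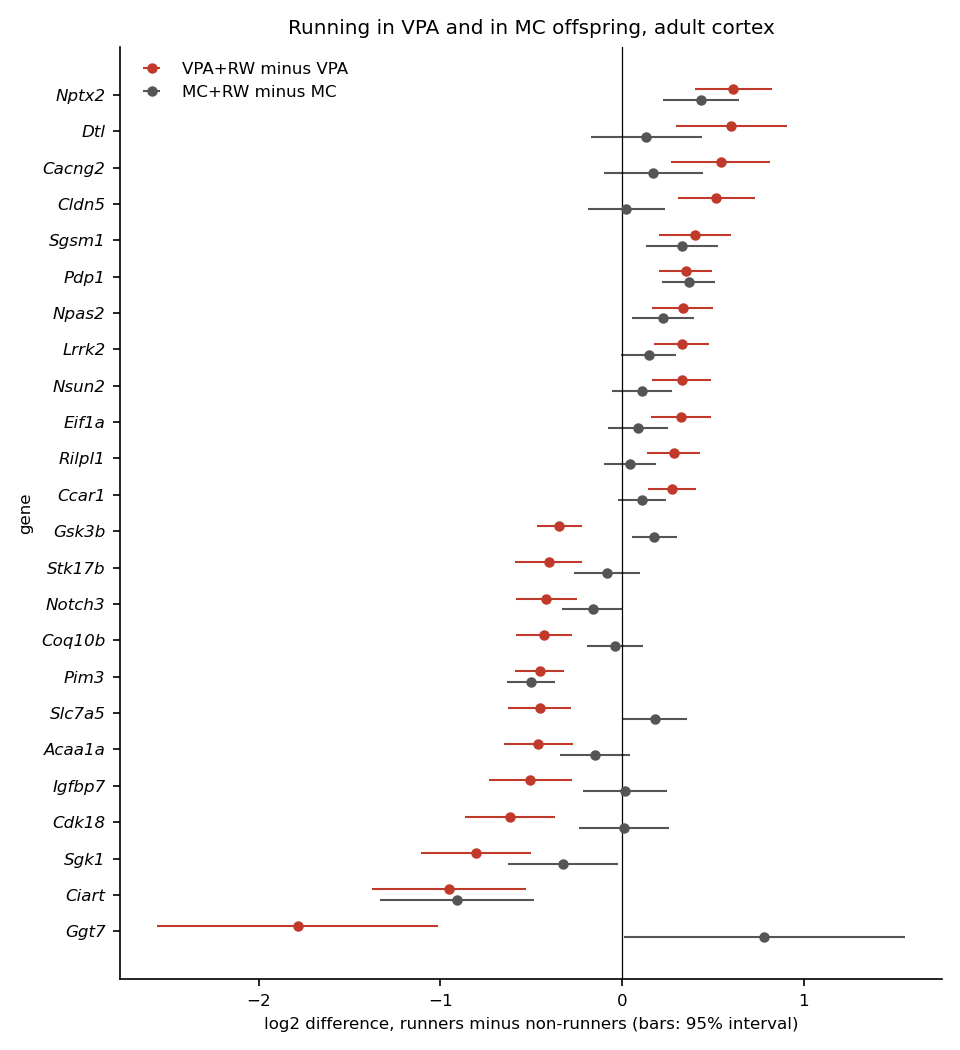
Log2 difference, runners minus non-runners, with its 95% interval from limma, for the 24 genes with the smallest p-values in the VPA comparison, in VPA offspring (red) and MC offspring (grey), 3 arrays a group. Pim3 lies at -0.45 and -0.50, while Gsk3b lies at -0.35 and 0.18.

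In the hippocampus of VPA offspring, 0 of 13466 genes passed with limma (0%), 1153 had an unadjusted p under 0.05 (8.56%), and the smallest adjusted p was 0.0591. The test of cortex against hippocampus gave 0 of 14010 genes (0%), with 749 at an unadjusted p under 0.05 (5.35%). Of the 23 named genes tested in the hippocampus, 17 differed there in the same direction as in the cortex. For this count too, the share over all genes was not worked out. Sgk1 differed by -0.72 in the hippocampus, Ciart by -1.21, Dbp by -1.16 and Pim3 by -0.36. Hippocampal Dbp was 1907, 2160.2 and 1692 in the VPA arrays and 689, 552 and 1650.4 in the VPA+RW arrays, with replicate 3 again beside the non-runners. The labels do not say whether cortex and hippocampus arrays of 1 number came from 1 animal. The test of cortex against hippocampus took all arrays as separate samples, with no term for a shared animal. Deviations of same-numbered arrays from their group means correlated between the tissues at 0.028, 0.17 and 0.21 in VPA+RW. In VPA these correlations were -0.034, -0.065 and -0.010.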

How the data were processed

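The deposited value table held signal intensity for 45101 probe sets on 59 arrays. Per the submitters' processing notes the software was GCOS; signal algorithm and scaling: not given in the sources used here. In the deposited intensity values the trimmed means of the 12 adult cortex arrays ranged from 284.5 to 397.7. Arrays were brought to a common trimmed mean of 500 (2% trimmed at each end), floored at 32 and log2 transformed. Genes took the probe set with the highest mean over 59 arrays, named from GEO's platform annotation updated through RefSeq's GRCm38.p6 gene table. Genes at 100 or more on at least 3 arrays were tested with limma 3.58.1 in R 4.3.3, 1 term per group over the 12 cortex arrays, with a trend on intensity, adjusted by Benjamini-Hochberg and called at 0.05. The hippocampus fit used its 12 arrays, and the tissue comparison all 24. Other tables and figures were made with Python 3.11.15.

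The exact permutation test cannot go below 0.10 with 3 arrays against 3, so limma was used throughout. The members and the 33 gene lists (904 members, 823 matched) were chosen with earlier results of these data known. Because fewer than 10 genes passed, the genes named were the 12 smallest unadjusted p-values in each direction. These needed no overlap of VPA and VPA+RW arrays and a mean of at least 200 in the higher of the VPA and VPA+RW groups. Up to 4 members per list were also named. For the difference of the running effects 5 per direction were named, under the same conditions on the VPA and VPA+RW arrays. Same-numbered VPA and VPA+RW cortex arrays deviated together with correlations of -0.15, -0.18 and 0.046, so the numbers were not taken to pair animals. None of the 1711 pairs of arrays held identical values. Fits were tested on simulated data. The precision is limited by the number of arrays.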

Additional observations from a re-analysis of the deposited data

How the results depend on the processing

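The count of 0 genes for running in VPA offspring stayed 0 with quantile normalization, log2(signal + 32), no filter, a filter at 200, no intensity trend, every probe set, only the 6 VPA arrays and the replicate block. It was 1 with values as deposited (Ggt7) and 1 with all 24 adult arrays (Gsk3b), and 0 to 3 leaving out 1 array, 3 without VPA+RW replicate 3. For the difference of the running effects the count of 0 became 2 with values as deposited and 1 with all 24 adult arrays, and 0 to 1 leaving out 1 array (1 without MC+RW replicate 1, Zbtb42, and 1 without VPA replicate 1, Pcnt). Values as deposited moved the median of all genes by 0.13 in that difference. The 2 genes called in MC offspring were not always the ones called: the count was 1 with quantile normalization (Pim3), 3 with log2(signal + 32), 4 with values as deposited (Ccn1, Btg2, Mmp7 and Casr), 7 with a filter at 200, 0 with no intensity trend, 8 probe sets of 7 genes with every probe set and 1 with the replicate block (Ccn1), and 0 to 133 leaving out 1 array (0 without MC replicate 1, MC replicate 3 or MC+RW replicate 2). The 1 gene of VPA against MC became 2 with quantile normalization, 2 with values as deposited, 0 with no filter and 0 with no intensity trend, and 0 to 5 leaving out 1 array. The alternatives for these 2 comparisons were chosen after seeing the data. The block on replicate number called 0 genes for running in VPA offspring and 0 for the difference, and the numbers share only a label. The cause of these moves was not tested. Of 68 genes in the text, 8 changed sign in 1 alternative: leaving out 1 array gave -1.56 to 0.13 for Arc, -1.26 to 0.022 for Fos, -1.33 to 0.010 for Egr2 and -0.91 to 0.023 for Nr4a1, above 0 without VPA+RW replicate 3, and by the median of other probe sets Eif1a was -0.10, Tlnrd1 -0.24, Ahsa1 -0.032 and Arntl -0.23. Among 726 list medians under alternatives, 62 moved by more than the spread between arrays. With 3 arrays a group, small differences and dim probe sets were beyond reach.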

Other observations

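Ggt7, a member of the gamma-glutamyltransferase family measured by 1 probe set, took signals in separate bands on the adult arrays. In the cortex it was 906, 936 and 1014 in the VPA arrays, 194, 207 and 522 in the VPA+RW arrays, 219, 149 and 256 in the MC arrays and 481, 433 and 205 in the MC+RW arrays. In the hippocampus it was 855, 1046 and 1036 in the VPA arrays and 207, 200.5 and 525 in the VPA+RW arrays, close to the cortex array of the same number for each. The 4 MC hippocampus arrays labelled P84 ranged from 1086 to 1147, although the 3 adult MC hippocampus arrays ranged from 199 to 278. The 4 VPA hippocampus arrays labelled P84 ranged from 1098 to 1258. High signal was thus also seen in vehicle offspring without a wheel. The embryonic arrays lay from 322 to 722. Among the VPA+RW arrays, replicate 3 was the highest in both tissues.

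Pcnt stood highest in the MC+RW cortex, at 1019, 1013 and 1039, against 684, 524 and 615 in MC arrays, 494, 682 and 594 in VPA arrays and 481, 455 and 491 in VPA+RW arrays. In VPA offspring its difference with running was -0.30 in the cortex and 1.23 in the hippocampus.

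In VPA+RW replicate 3 of the hippocampus, Arc was 602 and Fos 345, while the other 5 hippocampus arrays of VPA offspring ranged from 1451 to 2802 for Arc and from 919.7 to 1637 for Fos.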
